A study of Homo sapiens with 6 samples.

Results

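The HOX genes and their relatives of the ANTP class of homeobox genes were examined in sequential ChIP (reChIP) libraries for H3K4me3 and H2AK119ub. The 50 genes were taken from a list of names, out of 20015 protein-coding GENCODE v44 genes. They comprise 10 HOXA, 10 HOXB, 9 HOXC and 9 HOXD genes, the ParaHox genes CDX1, CDX2, GSX1, GSX2 and PDX1, and EVX1, EVX2, MEOX1, MEOX2, GBX1, GBX2 and MNX1. For each gene, the peaks overlapping 1500 bp on either side of any of its transcript starts (hg38) were read, and along the 4 HOX clusters all peaks were read. The libraries came from parental NCI-H661 cells, a human lung cancer line, with 1000000 cells per reChIP. They formed 3 conditions of 2 replicates each. In K4–K119 chromatin was pulled down for H3K4me3 and then for H2AK119ub, in K119–K4 the order of both antibodies was turned round, and the control IgG–IgG used IgG in both rounds. No cells were treated, only this line was used, and no library of a single antibody or of either antibody followed by IgG was analysed here, so carry-over of fragments with 1 mark was not tested. Expression was not measured in these libraries.

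HOX genes encode homeodomain transcription factors that set the identity of segments along the body axis. In mammals they lie in 4 clusters, each transcribed in an order that follows the axis, so that the genes of low paralog number act toward the head and those of high number toward the tail and the limb ends. ParaHox genes pattern the gut and the nervous system, and the GBX genes the anterior hindbrain and the forebrain. H3K4me3 is laid down at active and CpG-rich promoters, H2AK119ub by Polycomb repressive complex 1, and the HOX clusters are the best known targets of Polycomb repression.

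Promoter sequences are shown for genes with and without reChIP signal in both orders. They are RefSeq windows of GRCh38.p14 from 250 bases before to 50 bases after a gene start, 5′ to 3′ along the gene, with every CpG dinucleotide (CG, which reads the same on both strands) in capitals. GBX2, GBX1 and GSX1 had peaks of both replicates in both orders. HOXB1 had no reChIP peak at all and HOXD4 a single one, of 2 reads.
GBX2, chr2:236168337-236168636, minus strand: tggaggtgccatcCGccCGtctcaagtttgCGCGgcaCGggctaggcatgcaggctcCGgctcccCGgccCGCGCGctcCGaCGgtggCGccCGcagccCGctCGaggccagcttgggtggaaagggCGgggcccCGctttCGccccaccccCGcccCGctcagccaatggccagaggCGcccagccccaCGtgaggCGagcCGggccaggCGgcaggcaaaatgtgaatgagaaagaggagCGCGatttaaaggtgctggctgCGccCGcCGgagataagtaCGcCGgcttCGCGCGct
GBX1, chr7:151167645-151167944, minus strand: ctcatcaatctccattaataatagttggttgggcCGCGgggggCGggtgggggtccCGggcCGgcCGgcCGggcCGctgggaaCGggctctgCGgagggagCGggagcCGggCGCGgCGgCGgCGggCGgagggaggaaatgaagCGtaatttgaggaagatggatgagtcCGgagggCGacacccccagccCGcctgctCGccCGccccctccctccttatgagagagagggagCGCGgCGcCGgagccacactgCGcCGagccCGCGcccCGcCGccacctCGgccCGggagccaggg
GSX1, chr13:27792233-27792532, plus strand: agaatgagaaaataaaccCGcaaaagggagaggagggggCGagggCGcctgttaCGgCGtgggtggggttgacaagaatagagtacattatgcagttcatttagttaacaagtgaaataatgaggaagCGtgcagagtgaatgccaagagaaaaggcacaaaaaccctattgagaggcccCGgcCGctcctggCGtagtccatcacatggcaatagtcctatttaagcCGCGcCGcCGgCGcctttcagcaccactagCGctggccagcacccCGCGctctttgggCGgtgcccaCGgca
HOXB1, chr17:48530962-48531261, minus strand: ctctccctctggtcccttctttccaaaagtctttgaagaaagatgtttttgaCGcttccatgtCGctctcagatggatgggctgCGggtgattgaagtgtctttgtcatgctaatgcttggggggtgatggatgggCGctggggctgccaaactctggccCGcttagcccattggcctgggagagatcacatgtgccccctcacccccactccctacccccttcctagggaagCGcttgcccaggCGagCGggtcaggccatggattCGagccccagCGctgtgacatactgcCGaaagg
HOXD4, chr2:176151300-176151599, plus strand: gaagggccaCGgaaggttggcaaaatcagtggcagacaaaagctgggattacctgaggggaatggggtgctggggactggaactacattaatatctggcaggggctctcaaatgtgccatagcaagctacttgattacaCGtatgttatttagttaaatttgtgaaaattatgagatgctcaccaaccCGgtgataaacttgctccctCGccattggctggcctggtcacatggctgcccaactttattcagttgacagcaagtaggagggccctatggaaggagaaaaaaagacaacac
The GBX2 and GBX1 windows hold 36 CpG each, a count reached by 12.7% of the 35116 windows in the table. The GSX1 window holds 19 (reached by 42.9%), the HOXB1 window 11 (54.7%) and the HOXD4 window 4 (75.5%). Windows were matched for 29 of the 50 genes. Their 37 windows held a median of 22 CpG, against 14 over all windows.

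Each listed peak comes with its reads and the input reads beneath it. Kept peaks were those with a log2 fold over input above 1 and a false discovery rate below 0.05. Per library they totalled 749681 to 1977663 reads in the 4 reChIP libraries, against 58980 and 65433 reads in IgG–IgG, and in each library the median kept peak held 2 reads. K4–K119 replicate 1 stood apart. A peak there passed the fold filter with more than 0.657 reads per input read, but needed 7.90 in K4–K119 replicate 2, and 9.48 and 7.24 in the K119–K4 replicates. In IgG–IgG the limits were 1.59 and 2.01. Input counts were equal at every peak that a pair of reChIP libraries listed at identical coordinates, 518 to 1806 peaks per pair. Nearly every peak of K4–K119 replicate 1 was kept, 104200 of 104207. The count of reciprocal regions and some other results that rest on this library are given without it too, but not all. A reproducible region joins a peak of each replicate where their overlap exceeds 25% of each one's length, and a reciprocal region joins reproducible regions of both orders by the same rule.

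Reciprocal regions lay at the promoters of 5 of the 50 genes (10%): HOXC13, GBX2, HOXB9, GBX1 and GSX1. Over all protein-coding genes the share was 20.9%. Of the 38 genes within the clusters 2 had a region, and of the 12 outside them 3. None of the 10 HOXA and 9 HOXD genes had one, and in the clusters both regions fell on genes of paralog groups 9 to 13, of which 16 were listed. Without K4–K119 replicate 1 the same 5 genes had a region, against 21.0% of all genes. The count was 8 without K4–K119 replicate 2 (27.2% of all genes) and 10 without K119–K4 replicate 2 (27.0%). All 5 genes were among the 25 listed genes with at least 156.5 CpG in the 3 kb around the canonical start (20%). Over all genes with as many CpG the share was 48.1%.

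HOXC13, which in mice is required for hair and nail keratins, held 350 and 230 reads in the kept promoter peaks of K4–K119, against 568 and 234 reads in those of K119–K4. Its reciprocal region extended over 3000 bp from 53938401 to 53941400 on chromosome 12 and covered exon 1 of 2 of the canonical transcript. GBX2, a regulator of the midbrain-hindbrain boundary, held 536 and 239 reads in K4–K119, against 549 and 222 reads in K119–K4, in kept promoter peaks. Its region of 6200 bp over exons 1 and 2 (chromosome 2, 236163201 to 236169400) reached beyond the promoter and held 532 and 319 reads in K4–K119, against 549 and 271 in K119–K4. At both genes each library had more reads than in over 90% of the 4180 genes with a reciprocal region, except HOXC13 in K4–K119 replicate 1 (85.7%).

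HOXB9, a posterior gene of the thoracic segments, held 347 and 176 reads in K4–K119, against 364 and 160 reads in K119–K4. Its region of 3500 bp covered exon 1 of 2 (chromosome 17, 48624001 to 48627500). Its reads exceeded those of 85.4% and 85.7% of the 4180 genes in K4–K119, and of 83.6% and 85.3% in K119–K4. GBX1, active in the spinal cord and forebrain of the embryo, held 233 and 87 reads in K4–K119, against 167 and 48 reads in K119–K4, and its region of 2000 bp lay over exon 1 of 2 (chromosome 7, 151166801 to 151168800). These values are near the medians of the 4180 genes, 174 and 84 in K4–K119, against 162.5 and 65 in K119–K4.

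GSX1, a gene of the developing brain and hypothalamus, had the weakest signal of the 5. It held 145 and 26 reads in K4–K119, against 24 and 15 reads in K119–K4, fewer in all but K4–K119 replicate 1 than 90% of the genes with a region. The peak in K119–K4 replicate 2 had 0 input reads, and the region of 2400 bp over exons 1 and 2 (chromosome 13, 27792301 to 27794700) was not called when an input read, a log2 fold above 2 or an overlap of more than 50% was required. None of the 5 promoters had an IgG–IgG peak.

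**Figure D1:**
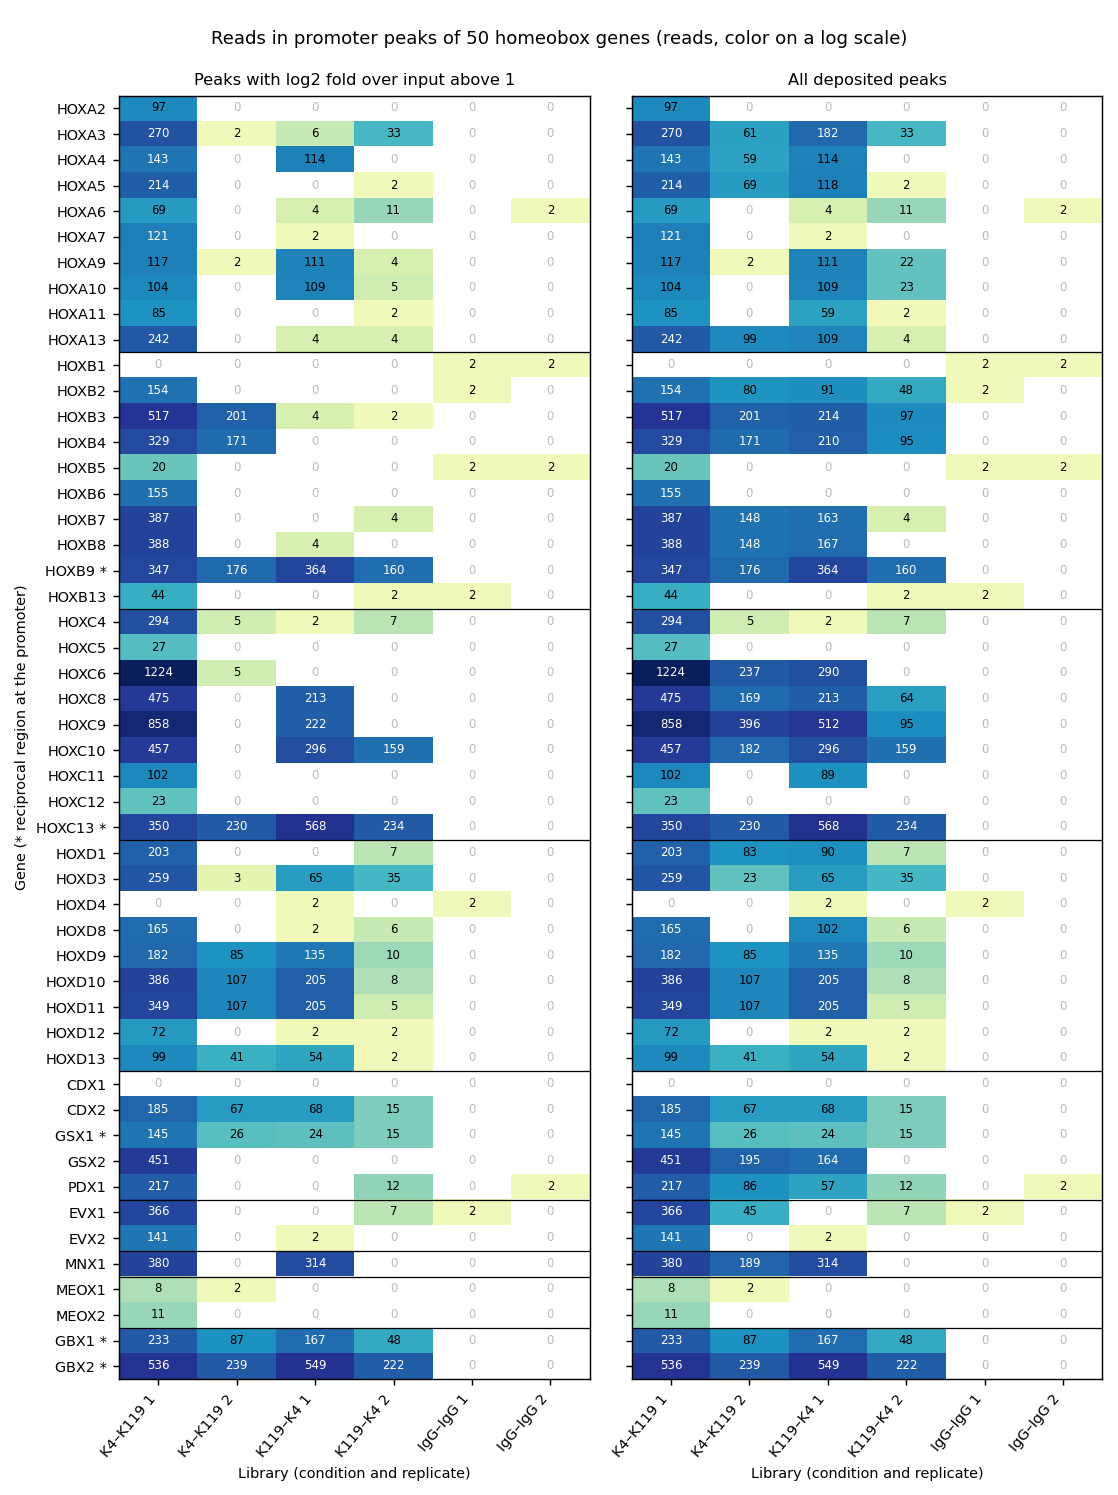
Reads in promoter peaks of each of the 50 genes (rows, grouped by cluster or family) in each of the 6 libraries (columns), in kept peaks on the left and in all deposited peaks on the right. Color follows reads on a log scale and white cells hold no peak. The 5 genes with a star have more than 10 reads in all 4 reChIP columns, and the IgG–IgG columns hold 2 reads at most.

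Reciprocal regions are built from peaks reproducible in each order. In K4–K119 such reproducible peaks lay at 15 of the 50 promoters (30%), against 33.0% of all genes, and in K119–K4 at 9 (18%), against 30.0%. In K4–K119 replicate 1 alone, 47 of the 50 genes had a kept peak (78.2% of all genes). The counts were 18 in K4–K119 replicate 2 (52.3% of all genes), 29 in K119–K4 replicate 1 (64.1%) and 28 in K119–K4 replicate 2 (61.4%). No kept reChIP peak was found at HOXB1 and CDX1, against 9.43% of all genes. HOXB1 patterns the hindbrain, and CDX1 the posterior axis and intestine.

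Of the 50 genes, 8 had a reproducible region in K4–K119 but not in K119–K4 (16%, against 11.0% of all genes), and 2 in K119–K4 but not in K4–K119 (4%, against 7.98%). Their reads are given in kept peaks. HOXB4, known for its effect on blood stem cells, had 329 and 171 reads in K4–K119, against no kept reads in K119–K4. Its K4–K119 region, 4000 bp from 48575801 to 48579800 on chromosome 17, contained exons 1 and 2 of HOXB4 and also lay at an internal start of HOXB3, downstream of the canonical one. Over all its starts HOXB3 had 517 and 201 kept reads in K4–K119, against 4 and 2 in K119–K4. K119–K4 peaks of 210 and 95 reads overlapped that region but had log2 folds of 0.83 and 0.63 and were not kept.

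In the HOXD cluster, reproducible K4–K119 regions lay at HOXD9, HOXD10, HOXD11 and HOXD13. HOXD1, HOXD3, HOXD4, HOXD8 and the posterior HOXD12, with 72 and 0 kept reads in K4–K119, had none. HOXD9 held 182 and 85 reads in K4–K119, against 135 and 10 reads in K119–K4. HOXD10 held 386 and 107 reads in K4–K119, against 205 and 8 in K119–K4, and HOXD13, mutated in human limb malformations, 99 and 41 in K4–K119, against 54 and 2 in K119–K4. At all of them K119–K4 replicate 2 was low. HOXD10 shares its region of 5800 bp with HOXD11, and that region covers both exons of HOXD11 but not the canonical start of HOXD10. HOXD11 had 349 and 107 reads in K4–K119, against 205 and 5 in K119–K4. HOXD11 and CDX2, an intestinal regulator with 185 and 67 reads in K4–K119, against 68 and 15 in K119–K4, were called in both orders, but at regions that did not overlap each other. Their K119–K4 regions held few of these reads, 3 and 2 at HOXD11 and 7 and 4 at CDX2.

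The other calls in K4–K119 rested on few reads in replicate 2. HOXC4 and HOXC6 share a region of 700 bp at upstream starts, which held 24 and 3 reads in K4–K119. HOXC4 had 294 and 5 reads in K4–K119, against 2 and 7 in K119–K4. HOXC6 had 1224 and 5 kept reads in K4–K119, against none in K119–K4. Of the 1224 reads, 858 lay in a wide peak over HOXC9 and 118 in the peak over the canonical start of HOXC6. A K119–K4 peak of 290 reads in replicate 1, also over HOXC9, had a log2 fold of 0.98. MEOX1, a gene of the somites, had 8 and 2 reads in K4–K119, against none in K119–K4. Called in K119–K4 alone were HOXC10, with 457 and 0 reads in K4–K119, against 296 and 159 in K119–K4, and HOXD3, with 259 and 3 reads in K4–K119, against 65 and 35 in K119–K4. At each a single peak of K4–K119 replicate 2 missed the fold filter, of 182 reads (log2 fold 0.77) at HOXC10 and of 20 reads (0.76) at HOXD3, and without that library both had a reciprocal region.

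Counted by reads alone, nearly every homeobox gene had a well-read peak in some library. The share with one in every library was near that of all genes. A peak of at least 10 reads, at any fold, was present in at least 1 reChIP library at 46 of the 50 genes (92%), against 70.9% of all genes. It was present in at least 3 libraries at 30 genes (60%, against 41.0%), and in all 4 at 13 genes (26%, against 28.8%). Without K4–K119 replicate 1, which alone had such a peak at all 46 genes, 34 genes had one in at least 1 of the other libraries (68%, against 51.6%) and 13 in all of them (26%, against 28.8%). With no fold filter, reciprocal regions lay at 15 genes (30%, against 30.2%), K4–K119 regions at 31 (62%, against 44.3%) and K119–K4 regions at 18 (36%, against 37.0%). The 10 genes added to the reciprocal ones were HOXA3, HOXB2, HOXB3, HOXB4, HOXC6, HOXC8, HOXC9, HOXC10, HOXD3 and PDX1.

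The reads of the next genes are given at any fold. HOXB2, a hindbrain gene, had 154 and 80 reads in K4–K119, against 91 and 48 in K119–K4, of which only those of K4–K119 replicate 1 were in kept peaks. HOXC8 had 475 and 169 reads in K4–K119, against 213 and 64 in K119–K4, and HOXC9 858 and 396 in K4–K119, against 512 and 95 in K119–K4. At HOXC8 the peaks of both second replicates missed the filter, with log2 folds of 0.96 in K4–K119 and 0.97 in K119–K4. PDX1, the pancreatic regulator, had 217 and 86 reads in K4–K119, against 57 and 12 in K119–K4. GSX2 and MNX1, which specify neurons, had no peak in K119–K4 replicate 2. GSX2 had 451 and 195 reads in K4–K119, against 164 and 0 in K119–K4, and MNX1 had 380 and 189 in K4–K119, against 314 and 0 in K119–K4.

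In the HOXA cluster, HOXA3 had 270 and 61 reads in K4–K119, against 182 and 33 in K119–K4, and was its only gene with 10 reads or more in every library. HOXA13, a gene of the distal limb and genital tubercle, had 242 and 99 reads in K4–K119, against 109 and 4 in K119–K4. HOXA5, active in the developing lung, had 214 and 69 in K4–K119, against 118 and 2 in K119–K4. HOXA9 and HOXA10, both known from leukemia, had few reads in both second replicates. They share a peak of 98 reads in K4–K119 replicate 1, and peaks of 109 and 18 reads in K119–K4. In K4–K119 replicate 1 the shared peak contained the canonical start of HOXA10 but not that of HOXA9. HOXA9 had 117 and 2 reads in K4–K119, against 111 and 22 in K119–K4, and HOXA10 had 104 and 0 in K4–K119, against 109 and 23 in K119–K4.

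HOXB7 and HOXB8 share peaks and had nearly the same counts, for HOXB7 387 and 148 reads in K4–K119, against 163 and 4 in K119–K4. HOXD1, the anterior end of its cluster, had 203 and 83 reads in K4–K119, against 90 and 7 in K119–K4. Well-read peaks were found in K4–K119 replicate 1 alone at HOXA2, HOXA6, HOXA7, HOXB5, HOXB6, HOXB13, HOXC4, HOXC5, HOXC12, HOXD12, EVX2 and MEOX2, among which HOXB13 acts in the prostate and EVX2 neighbours the HOXD cluster.

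The peaks at the homeobox genes were wide and lay on more input. Among promoter peaks of at least 10 reads, their median width was 2100 and 2500 bp in K4–K119, against 2400 and 1900 bp in K119–K4. The medians over all promoters were 1400 and 1500 bp in K4–K119, against 1300 and 1200 bp in K119–K4. Input reads per kb of peak had a median of 6.14 and 5.88 in K4–K119, against 5.93 and 4.74 in K119–K4 at the homeobox genes. Over all promoters it was 4.80 and 3.91 in K4–K119, against 4.00 and 3.75 in K119–K4. Reads per kb had medians of 43.6 and 38.2 in K4–K119, against 57.4 and 33.9 in K119–K4 at the homeobox genes, lower in every library than over all promoters, where they were 48.2 and 39.1 in K4–K119, against 65.6 and 41.3 in K119–K4. The fold filter kept 100% and 40.7% of these homeobox peaks in K4–K119, against 55.2% and 61.5% in K119–K4. Over all promoters it kept 100% and 70.4% in K4–K119, against 82.8% and 79.8% in K119–K4. These are descriptions of peaks, which share libraries and neighbouring sequence, and no test was made of them. The part of the input reads in the lower share of kept peaks was not tested.

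**Figure D2:**
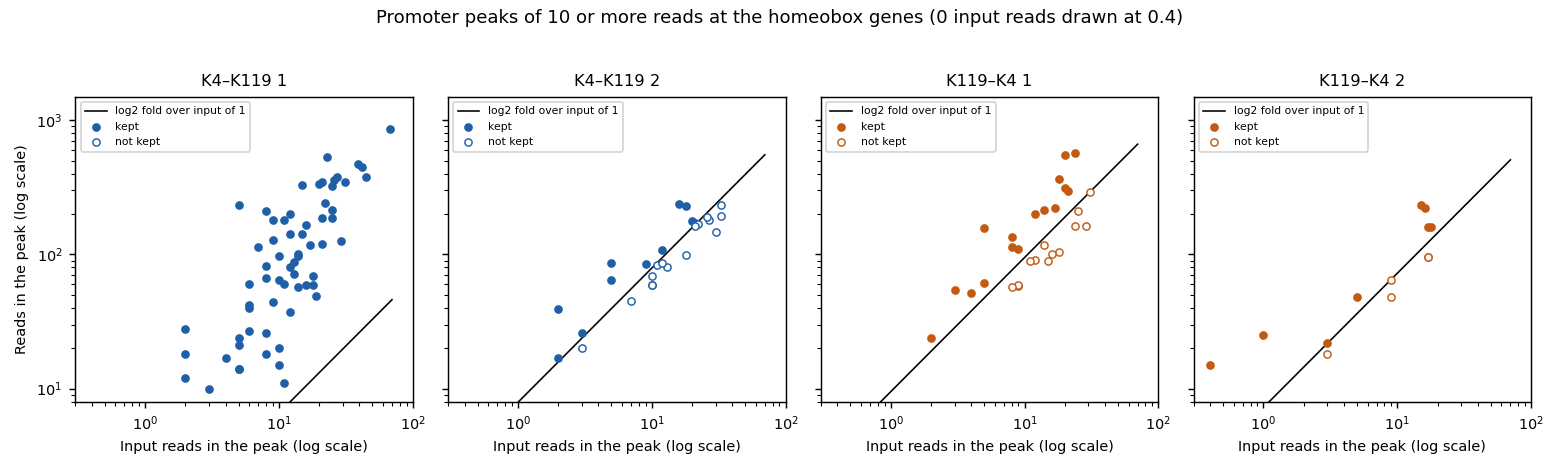
Reads against input reads, both on log axes, of each promoter peak of at least 10 reads at the homeobox genes, with 1 panel per reChIP library. The line marks a log2 fold of 1, filled points are kept peaks and open points are not. In K4–K119 replicate 1 all points lie above the line, and in the other 3 libraries they straddle it.

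Along the 4 clusters, kept peaks covered 31.9% and 4.02% of the length in K4–K119, 6.62% and 4.57% in K119–K4, and 0.322% and 0.209% in IgG–IgG. The spread between the K4–K119 replicates was thus larger than the difference between orders. At any fold the shares were 31.9% and 10.7% in K4–K119, against 12.3% and 6.94% in K119–K4. Genome-wide, kept peaks covered 1.48% and 1.05% in K4–K119, 1.13% and 1.28% in K119–K4, and 0.139% and 0.149% in IgG–IgG.

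The clusters differed from each other. In HOXC, which extends over 120.2 kb, kept peaks covered 45.0% and 3.00% in K4–K119, against 10.2% and 5.32% in K119–K4. The peak of K4–K119 replicate 1 over HOXC9 and a start of HOXC6 was 11200 bp wide and held 858 reads, and was the widest of 15476 promoter peaks of at least 10 reads in that library. In HOXA (102.738 kb) the shares were 32.9% and 1.65% in K4–K119, against 5.55% and 4.67% in K119–K4, and in HOXD (101.187 kb) 31.0% and 6.92% in K4–K119, against 10.6% and 6.62% in K119–K4. HOXB (203.225 kb) had 24.2% and 4.38% in K4–K119, against 3.05% in each K119–K4 replicate. Between HOXB9 and HOXB13, a peak over the starts of the divergent long noncoding RNA genes LINC03057 and LINC02086, named after its values were seen, held 146 and 73 reads in K4–K119, against 93 and 60 in K119–K4. It was kept in K4–K119 replicate 1 alone. Input reads per kb of peaks of at least 10 reads were 6.02 to 7.13 in HOXB and HOXC, and 4.41 to 5.47 at promoter peaks of the same chromosomes. In HOXA they were 2.35 to 7, and 5.05 to 5.94 at promoters of that chromosome. In HOXD they were 3.33 to 4.79, and 4.59 to 5.67 at promoters of that chromosome.

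The IgG–IgG background was low. A kept IgG–IgG peak of either replicate lay at 8 of the 50 promoters (16%), against 19.1% of all genes. They were HOXA6, HOXB1, HOXB2, HOXB5, HOXB13, HOXD4, PDX1 and EVX1, and at each of them the peaks of a library held 2 reads. HOXB1 and HOXB5 had such a peak in both IgG–IgG replicates. At HOXB1 this was the only signal, and at HOXB5 the 20 reads of K4–K119 replicate 1 were the only reChIP reads. In kept reChIP peaks HOXA6 had 69 and 0 reads in K4–K119, against 4 and 11 in K119–K4. HOXB13 had 44 and 0 in K4–K119, against 0 and 2 in K119–K4, and HOXB2 had 154 and 0 in K4–K119, against none in K119–K4. EVX1, a gene of spinal interneurons, had 366 and 0 in K4–K119, against 0 and 7 in K119–K4, and PDX1 had 217 and 0 in K4–K119, against 0 and 12 in K119–K4. No IgG–IgG peak along the clusters held 10 reads.

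The order of the antibodies was compared by the reads in kept promoter peaks, with edgeR's quasi-likelihood test over 9613 protein-coding genes, of which 27 were homeobox genes. No homeobox gene passed an adjusted p of 0.05, and neither did any other gene (0% higher and 0% lower in K4–K119). At an unadjusted p below 0.05 there were 2, HOXB3 and HOXB4. DESeq2 called the same 2 as higher in K4–K119, of 37 homeobox genes with an adjusted p, against 1.36% of 9693 genes. Without K119–K4 replicate 1, edgeR called 7 of 42 as higher in K4–K119, HOXB3, HOXB4, HOXB8, HOXC6, HOXC8, HOXC9 and GSX2, along with 344 of 12697 genes. That fit had a lone K119–K4 sample, in which HOXB8, HOXC6, HOXC8, HOXC9 and GSX2 had no kept reads. At any fold HOXC8 had 64 reads there and HOXC9 95. In K4–K119 the kept reads of these genes lay in replicate 1, where nearly every peak passed the fold filter, except 5 at HOXC6. Most reads of HOXB3 and HOXB4 in K119–K4 lie in peaks that missed the fold filter. Counted at any fold, HOXB3 had 517 and 201 reads in K4–K119, against 214 and 97 in K119–K4, a log2 ratio of 0.72 ± 0.17 (SE; edgeR adjusted p = 0.408), and HOXB4 a ratio of 0.30 ± 0.17 (adjusted p = 0.716).

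At the genes with a reciprocal region the log2 ratio of kept reads in K4–K119 over K119–K4 was −0.71 ± 0.35 for HOXC13, −0.36 ± 0.22 for GBX2, −0.35 ± 0.26 for HOXB9, 0.25 ± 0.41 for GBX1 and 1.37 ± 1.06 for GSX1 (SE; edgeR adjusted p = 0.9996 for each). A promoter with no kept peak counts as 0 reads, which affected 12 of the 27 genes. At HOXB4, HOXC8, HOXC9, HOXC10, HOXD1 and PDX1 each 0 stood for peaks that missed the fold filter. At HOXA4, HOXA6, HOXA10, HOXD8, EVX1 and MNX1, 1 library had no listed peak at any fold. Reads below the caller's threshold are not listed. With 2 replicates per order, edgeR also left ratios larger than their errors uncalled. This was so at HOXC13, GBX2, HOXB9 and GSX1, and by a wider margin at HOXB3 and HOXB4. The absence of a call therefore does not show that the orders were equal.

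**Figure D3:**
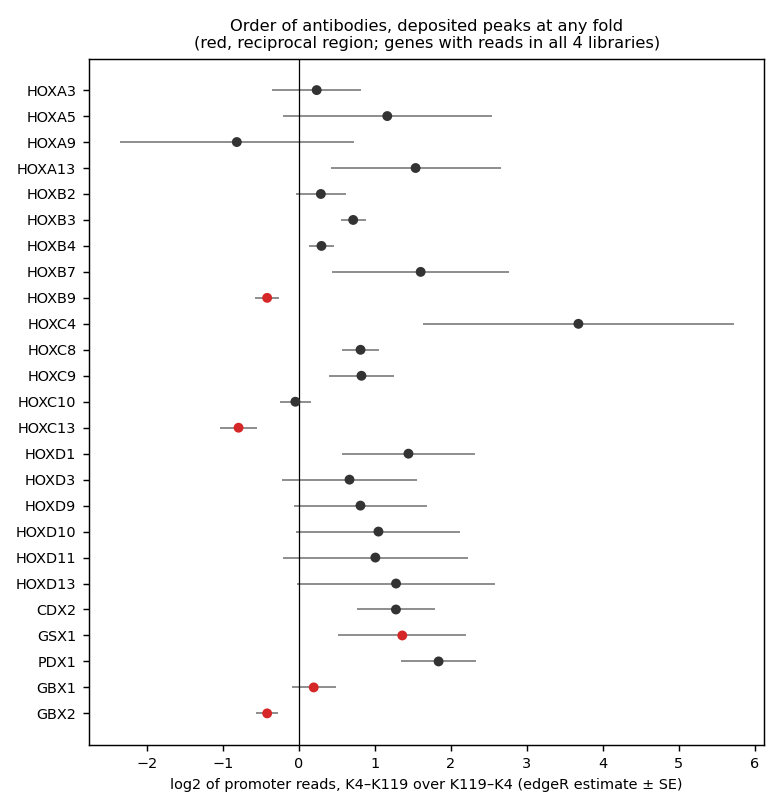
log2 ratio of promoter reads in K4–K119 over K119–K4, with a standard error derived from edgeR's F statistic. Shown are the 25 homeobox genes with reads in all 4 reChIP libraries when peaks of any fold are counted. Red points are the genes with a reciprocal region. HOXC13, GBX2, HOXB9, HOXA9 and HOXC10 lie left of 0 and the other genes right of it, and no gene passed an adjusted p of 0.05.

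Promoters of the listed genes were rich in CpG. In the 3 kb around the canonical start, the median was 156.5 CpG (43 to 306), against 115 over all genes and 171 over the 4180 genes with a reciprocal region, and 41 of the 50 were at or above the median of all genes. The median was 173.5 in HOXA and 187 in HOXD, where no gene had a reciprocal region, and 116.5 in HOXB and 133 in HOXC, where HOXB9 had 189 and HOXC13 175. MNX1, a motor neuron gene, had the highest count, 306.

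Genes of the HOX pathway outside the family carried reciprocal regions as follows, against the 20.9% of all genes. Of 11 TALE homeobox genes, whose proteins bind DNA with HOX proteins or are related to those that do, 5 had one, among them MEIS2, TGIF1, TGIF2 and PBX3. MEIS2 held 487 and 392 reads in K4–K119, against 482 and 411 in K119–K4. Of 25 Polycomb and Trithorax genes, which keep HOX clusters repressed or active, 11 had one, among them PCGF2, CBX2, KMT2B and EZH2. CBX2, a Polycomb chromodomain gene, held 358 and 190 reads in K4–K119, against 426 and 185 in K119–K4. Of 16 genes of the retinoid pathway, through which retinoic acid induces HOX genes, 4 had one: CYP26A1, RDH10, RXRA and ALDH1A3. CYP26A1, which degrades retinoic acid, held 556 and 394 reads in K4–K119, against 618 and 263 in K119–K4.

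Of 25 further genes listed in the clusters, all noncoding RNA genes except PRAC1 and PRAC2, 1 had a reciprocal region, HOXB-AS4, which starts within 1500 bp of the region of HOXB9. MIR10A lies 38 bp beyond the K4–K119 region of HOXB4 and had 404 and 171 reads in K4–K119, against none in kept peaks of K119–K4. MIR196A2 had 983 reads in K4–K119 replicate 1 and no peak within 1500 bp of its start in the other 3 reChIP libraries. Of these reads 858 belong to the wide peak over HOXC9, which reaches the edge of that window, and 125 to the peak over the miRNA. In K4–K119 replicate 2 and K119–K4 replicate 1, peaks of 232 and 290 reads over HOXC9 began at 53993601, beyond the window. MIR196A1 had no reads in K4–K119, against 2 in each K119–K4 replicate. MIR196B had 0 and 2 reads in K4–K119, against 2 in each K119–K4 replicate. The mature sequences of these miRNAs (RefSeq, GRCh38.p14) are shown for their seeds (bases 2 to 8, in capitals), which miR-196a-5p and miR-196b-5p share. Of the MIR196 loci, only MIR196A2 had more than 2 reads in a library, and that in K4–K119 replicate 1 alone.
hsa-miR-10a-5p, chr17:48579904-48579926, minus strand: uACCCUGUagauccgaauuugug
hsa-miR-196a-5p, chr12:53991762-53991783, plus strand (MIR196A2) and chr17:48632532-48632553, minus strand (MIR196A1): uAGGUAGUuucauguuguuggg
hsa-miR-196b-5p, chr7:27169528-27169549, minus strand: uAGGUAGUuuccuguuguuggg

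The count of homeobox genes with a reciprocal region was recomputed under 14 other settings. HOXB9, HOXC13, GBX1 and GBX2 kept their region under 13 of them and lost it when a log2 fold above 2 was required, as did GSX1, which kept it under 11. At a log2 fold above 2 no listed gene had a region, against 6.27% of all genes.

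**Figure D4:**
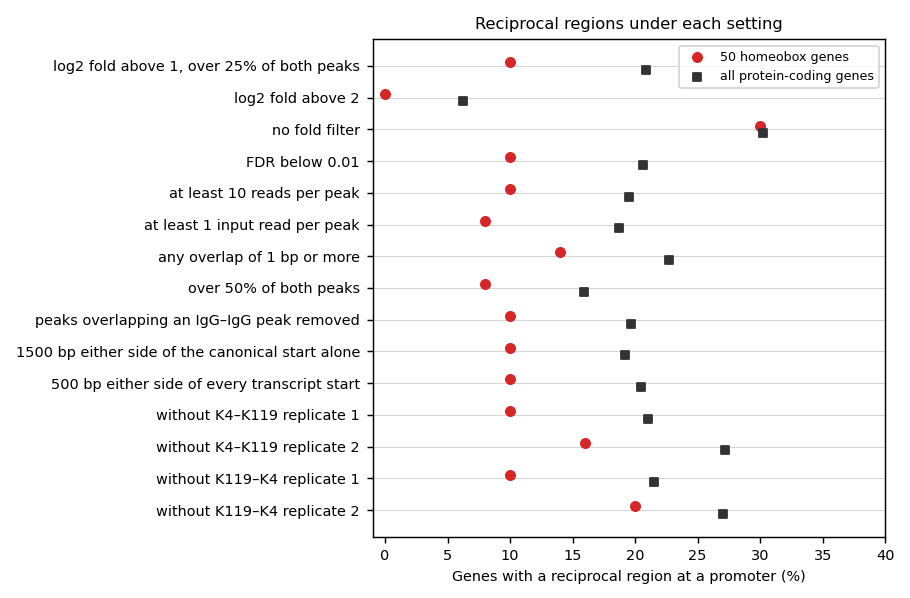
Share of the 50 homeobox genes (red circles) and of all protein-coding genes (black squares) with a reciprocal region at a promoter, in percent, under the setting of the report (top line) and 14 other settings. The circle lies left of the square under every setting, and the pair nearly touch where no fold filter is used, at 30% and 30.2%.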

How the data were processed

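Sequential ChIP libraries of NCI-H661 cells were grouped by the submitters' labels (K4–K119, K119–K4 and IgG–IgG, 2 replicates each). All 6 were used. The submitters' processing notes name Trim Galore 0.6.6, BWA 0.7.13, SAMtools 1.9, Picard 2.6.0 and the build hg38. The authors' methods call peaks by library with EPIC2, in bins of 100 bp and against genomic input. The deposited reads and input reads are whole-number counts per peak, unscaled as deposited. For every peak a p-value and a false discovery rate against input were deposited too. The log2 fold, also deposited, sets reads over input reads times a factor constant within a library, and the score that goes with it was not used. Reads outside peaks are not listed, so sequencing depth is unknown, and reads in a peak depend on how much was called. Labels call the replicates separate samples, and p-values measure the spread between these samples.

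Promoter reads are sums over the distinct peaks at a gene, and neighbouring genes can share a peak. The 50 genes and the other lists were chosen with earlier results of these data known. By rule, values of every library were given for genes with a reciprocal region, genes called in 1 order, genes with an IgG–IgG peak and genes that lost a region by a single peak, and of each other list up to 4 genes with a region were named, those with the most reads in their lowest library. Further genes were chosen after their values were seen. Orders were compared with edgeR 4.0.16 (TMM, filterByExpr, Benjamini-Hochberg adjustment over all genes tested) in R 4.3.3, tested on simulated data first, with DESeq2 1.42.0 as an alternative. Standard errors (SE) are the absolute log2 ratio divided by the square root of edgeR's F statistic. CpG were counted in hg38, and printed sequences come from RefSeq (GRCh38.p14). The authors' exclusion of blacklisted regions was not repeated. Python 3.11.15 and pandas 2.3.3 were used. The alternatives were other fold, false discovery rate, read, input, overlap and promoter rules, removal of peaks overlapping IgG–IgG, each library left out in turn and, for the order of antibodies, a replicate block.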

Additional observations from a re-analysis of the deposited data

How the results depend on the processing

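Among the 14 other settings, the FDR, read, input and overlap minimums, the removal of peaks overlapping IgG–IgG and both other promoter windows left the count of genes with a reciprocal region within 1.5 times of 5, and the fold filter did not. At a log2 fold above 2 the counts were 0 reciprocal, 7 in K4–K119 and 4 in K119–K4, and with no fold filter 15, 31 and 18 in the same order. Leaving out each library in turn gave 5 to 10 reciprocal genes: 8 without K4–K119 replicate 2, with CDX2, HOXC10 and HOXD3 added, and 10 without K119–K4 replicate 2, with CDX2, HOXD9, HOXD10, HOXD11 and HOXD13 added. A single remaining library called 18 to 47 genes in K4–K119 and 28 to 29 in K119–K4, since every kept peak then counts. Genes with an IgG–IgG peak numbered 0 at 10 reads or 1 input read per peak, 4 within 500 bp, and 4 to 6 with 1 IgG–IgG library. The share of cluster length in kept peaks of K119–K4 replicate 1 was 3.00% at a log2 fold above 2, 12.3% with no fold filter, 4.72% at 10 reads and 4.72% at 1 input read. In K119–K4 replicate 2 it was 3.03%, 6.94%, 1.69% and 2.07%, and in IgG–IgG 0% at 10 reads and at 1 input read in both replicates. Genes higher in K4–K119 numbered 2 by DESeq2 and 0 to 7 with a library left out; without K119–K4 replicate 1, which leaves a lone sample assumed to vary like the other order, GSX2, HOXB3, HOXB4, HOXB8, HOXC6, HOXC8 and HOXC9 were called, with 344 of 12697 genes overall. With a library left out, the log2 ratio of GBX1 ranged from −0.0767 (K119–K4 replicate 2) to 0.43 (K119–K4 replicate 1), and over the other settings it stayed above 0, up to 0.49 at 10 reads per peak. Replicate numbers were checked for pairing: deviations of same-numbered samples correlated at 0.172 over 9613 genes, and with 2 pairs they share only a number. With the replicate block 0 genes were called in either direction, as without it. The cause of these changes was not tested.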
